A study of Mus musculus with 2 samples.

Results

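The genes Cd3g, Cd3d, Cd3e and Cd247, which encode the invariant CD3 chains of the T-cell receptor, were examined for open chromatin in thymus, the organ in which T cells mature. They were chosen by name, as 4 of 21755 protein-coding genes on the autosomes and X. Each gene was taken from start to end with 50 kb added on each side. Cd3g, Cd3d and Cd3e are neighbours on chromosome 9, so their windows were merged into 1 window of 140.1 kb (chr9:44919572-45059627, mm10). The window of Cd247 spans 188.6 kb of chromosome 1 (chr1:165738681-165927277). Peaks in these windows numbered 54 of 59484 in mouse 1 and 92 of 72913 in mouse 2. Merging overlapping peaks of the mice gave 100 sites.

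DNase-seq, which locates DNA that the enzyme DNase I can reach and cut, was run on whole thymus of 2 female mice at 36 days of age, 1 library per animal. Both animals were B6CASTF1/J, the offspring of a cross between the strains C57BL/6J and CAST/EiJ, and no treatment or genotype was compared. The mice therefore form 1 group, and their values are given as a mean ± SD without a test. In whole tissue, a peak's height cannot separate the share of cells in which a site is open from how open it is in each cell. Promoter peaks were present in both mice at 10 of 10 thymocyte markers, at the B-cell marker Blk but not at the B-cell markers Ms4a1, Cd79a and Pax5, at 0 of 5 myeloid markers, at 1 of 5 thymic epithelial markers (Epcam, with Foxn1, Krt5, Krt8 and Psmb11 at 0) and at 0 of 5 hepatocyte markers. Among the single mice, 1 myeloid marker, Lyz2, had a peak of 0.664 in mouse 1 and none in mouse 2.

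CD3 chains carry the signal of the T-cell receptor into the cell. The gamma and delta chains each pair with epsilon, and the zeta chain, encoded by Cd247, pairs with itself. Their cytoplasmic tails hold tyrosine motifs that the kinase Lck phosphorylates and to which the kinase ZAP-70 then binds. In mice that lack any one of them, thymocyte development is blocked or impaired. T-cell enhancers were described at the 3′ ends of the human CD3D and CD3E genes in earlier work, and whether any mouse site below corresponds to them was not examined.

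The gamma and delta genes lie head to head. Cd3g (chr9:44969572-44980431, ENSMUSG00000002033) is read from the minus strand, Cd3d (chr9:44981786-44987339, ENSMUSG00000032094) from the plus strand, and their start sites are 1355 bp apart. Cd3e (chr9:44998740-45009627, ENSMUSG00000032093) is read from the minus strand, so Cd3d and Cd3e face each other with 11400 bp between their 3′ ends. Cd247 (chr1:165788681-165877277, ENSMUSG00000005763) is read from the plus strand.

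The 250 bases before each start site are shown because all 4 start sites lay inside a peak in both mice. Letters are those of the C57BL/6J reference (RefSeq, GRCm38.p6), read 5′ to 3′ along the gene, and the CAST/EiJ copies that these mice also carry were not analysed here. Capitals mark bases covered in both mice by a footprint, a short stretch where cutting was depleted. Footprints were not confined to peaks, and some capitals before Cd3g, Cd3e and Cd247 lie outside the start-site peak. The stretches are chr9:44980432-44980681 on the minus strand, chr9:44981536-44981785 on the plus strand, chr9:45009612-45009861 on the minus strand and chr1:165788431-165788680 on the plus strand.
Cd3g promoter: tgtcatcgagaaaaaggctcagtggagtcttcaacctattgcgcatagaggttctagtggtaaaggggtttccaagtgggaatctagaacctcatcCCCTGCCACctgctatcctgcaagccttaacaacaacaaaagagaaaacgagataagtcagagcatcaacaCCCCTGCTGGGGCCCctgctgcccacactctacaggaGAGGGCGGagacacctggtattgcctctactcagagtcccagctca
Cd3d promoter: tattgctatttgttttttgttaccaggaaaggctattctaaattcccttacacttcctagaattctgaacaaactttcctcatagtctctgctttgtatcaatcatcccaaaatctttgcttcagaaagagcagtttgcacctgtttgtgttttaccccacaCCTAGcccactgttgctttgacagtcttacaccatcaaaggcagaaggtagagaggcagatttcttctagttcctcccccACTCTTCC
Cd3e promoter: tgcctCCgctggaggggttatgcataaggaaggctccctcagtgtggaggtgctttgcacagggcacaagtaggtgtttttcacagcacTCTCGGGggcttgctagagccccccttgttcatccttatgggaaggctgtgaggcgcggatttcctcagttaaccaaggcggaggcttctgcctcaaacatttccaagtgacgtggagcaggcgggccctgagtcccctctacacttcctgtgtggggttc
Cd247 promoter: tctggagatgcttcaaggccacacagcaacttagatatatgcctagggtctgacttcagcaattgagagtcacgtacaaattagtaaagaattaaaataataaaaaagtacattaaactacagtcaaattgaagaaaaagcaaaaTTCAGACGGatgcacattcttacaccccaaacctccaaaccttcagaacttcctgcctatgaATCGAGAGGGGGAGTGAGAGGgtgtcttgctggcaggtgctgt

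These promoters differ in base composition. G and C made up 51.6% of the bases before Cd3g, 41.2% before Cd3d, 57.2% before Cd3e and 41.2% before Cd247. CpG pairs numbered 4, 0, 7 and 3 in that order. The Cd3d stretch thus held no CpG. Footprints of both mice covered 32 of the 250 bases at Cd3g, 13 at Cd3d, 9 at Cd3e and 30 at Cd247.

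The 200 bases around the centre of 6 further sites are shown, because they were among the strongest sites away from annotated protein-coding promoters in both mice. All are on the plus strand of the same reference, with capitals as above. Names give the distance from the start site of the nearest CD3 gene in the direction in which that gene is read. The intervals are chr9:44966891-44967090, chr9:44996691-44996890, chr9:45015971-45016170, chr1:165802051-165802250, chr1:165803111-165803310 and chr1:165853801-165854000, in the order of the lines.
Cd3g plus 13.4 kb: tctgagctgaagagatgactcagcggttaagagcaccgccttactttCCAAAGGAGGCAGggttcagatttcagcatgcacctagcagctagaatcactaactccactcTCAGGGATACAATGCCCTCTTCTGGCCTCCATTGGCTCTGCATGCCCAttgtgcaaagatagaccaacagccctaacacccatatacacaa
Cd3e plus 12.8 kb: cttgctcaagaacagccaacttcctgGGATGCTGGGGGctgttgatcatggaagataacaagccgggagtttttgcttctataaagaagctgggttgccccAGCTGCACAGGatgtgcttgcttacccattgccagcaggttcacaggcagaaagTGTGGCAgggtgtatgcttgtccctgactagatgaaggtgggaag
Cd3e minus 6.46 kb: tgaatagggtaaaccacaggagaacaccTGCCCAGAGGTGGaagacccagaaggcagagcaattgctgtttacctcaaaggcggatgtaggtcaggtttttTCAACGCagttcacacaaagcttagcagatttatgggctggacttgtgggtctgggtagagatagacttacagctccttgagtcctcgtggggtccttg
Cd247 plus 13.5 kb: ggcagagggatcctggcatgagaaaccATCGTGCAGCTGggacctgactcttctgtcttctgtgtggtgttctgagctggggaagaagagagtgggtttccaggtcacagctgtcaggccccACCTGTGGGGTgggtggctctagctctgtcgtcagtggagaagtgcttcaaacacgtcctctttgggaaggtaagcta
Cd247 plus 14.5 kb: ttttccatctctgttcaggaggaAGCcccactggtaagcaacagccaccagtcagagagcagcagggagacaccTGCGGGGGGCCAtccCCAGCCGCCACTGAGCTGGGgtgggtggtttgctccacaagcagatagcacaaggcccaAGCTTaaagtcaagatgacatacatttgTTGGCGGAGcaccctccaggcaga
Cd247 plus 65.2 kb: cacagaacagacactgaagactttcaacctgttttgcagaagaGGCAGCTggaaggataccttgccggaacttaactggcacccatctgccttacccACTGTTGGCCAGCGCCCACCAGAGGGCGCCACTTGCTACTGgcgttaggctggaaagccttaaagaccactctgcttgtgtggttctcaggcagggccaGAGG

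All 4 genes had an open promoter in both mice. Over all protein-coding genes, 56.6% had a peak within 1000 bp of an annotated start site in both mice, and 54.8% had one by the narrower count of coding transcripts used for the heights below. The height of a peak is the value that the authors deposited with it, scaled within each library. Heights ran in the order Cd3g, Cd3e, Cd247, Cd3d in each mouse separately. On the deposited scale, which differs between the libraries, no pair of neighbours in that order overlapped between the mice. The order was not tested. Deposited heights ran larger in mouse 2 over the whole genome, so each start-site peak was also ranked among the peaks of its own library. By that rank all 4 stood higher in mouse 1 than in mouse 2, and neighbours in the order did overlap between the mice. Cd3e stood at the 91.6th percentile in mouse 1 and the 87.9th in mouse 2, and Cd247 at the 89.6th and 83.8th. Cd3d, at the 87.3rd and 68.4th, overlapped Cd247.

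The promoter of Cd3g, which encodes the gamma chain, was the highest of the 4. Its peak over the start site had a height of 10.8 in mouse 1 and 19.3 in mouse 2, a mean of 15.0 ± 6.0 (SD, n = 2). By deposited height mouse 2 was the higher, but within its own library the peak stood at the 96.1st percentile of peaks in mouse 1 and the 95.1st in mouse 2. The mean height stood at the 73.5th percentile of the 11912 genes open in both mice. Its borders were nearly the same in both animals, 44980321 to 44980560 in mouse 1 and 44980321 to 44980540 in mouse 2. Inside the gene, 431 to 517 bp past the start in mouse 1 and 271 to 603 bp past it in mouse 2, a weaker peak had a height of 1.42 and 1.77.

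The promoter of Cd3d, which encodes the delta chain, was the lowest of the 4. Its peak over the start site had a height of 5.14 in mouse 1 and 2.74 in mouse 2, a mean of 3.94 ± 1.69 (SD, n = 2), at the 24.4th percentile of open genes. By deposited height it was the one start-site peak of the 4 that was higher in mouse 1. Within its own library it stood at the 87.3rd percentile of peaks in mouse 1 and the 68.4th in mouse 2, the widest gap of the 4. Its borders ran from 44981661 to 44981900 in mouse 1 and from 44981681 to 44982040 in mouse 2. Another peak lay between the Cd3g and Cd3d starts, with a height of 1.31 in mouse 1 and 0.937 in mouse 2, within 1000 bp of both genes. In mouse 2 a further peak of 1.53 began 855 bp inside Cd3d.

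The promoter of Cd3e, which encodes the epsilon chain shared by both CD3 dimers, had a start-site peak of 7.0 in mouse 1 and 9.11 in mouse 2. The mean was 8.06 ± 1.49 (SD, n = 2), at the 46.4th percentile of open genes. Among the peaks of its own library it stood at the 91.6th percentile in mouse 1 and the 87.9th in mouse 2. It was flanked on both sides by peaks that both mice had. Their heights were 3.53 in mouse 1 and 3.89 in mouse 2 at a site centred 1.11 kb inside the gene. They were 3.82 in mouse 1 and 5.09 in mouse 2 at a site centred at -1.09 kb, before the start. In mouse 2 another peak of 3.27 lay 131 to 390 bp inside the gene, and mouse 1 had no peak there.

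The promoter of Cd247, which encodes the zeta chain, had a start-site peak of 6.0 in mouse 1 and 6.42 in mouse 2. The borders were the same to the base in both mice, 165788601 to 165788800. The mean of 6.21 ± 0.30 (SD, n = 2) stood at the 37.4th percentile of open genes. Its SD was the smallest of the 4 in deposited heights, whose scale differs between the libraries. Among the peaks of its own library the start-site peak stood at the 89.6th percentile in mouse 1 and the 83.8th in mouse 2. By that rank the mice were closest at Cd3g, at the 96.1st and 95.1st percentile. A weaker peak inside the gene had a height of 1.64 in mouse 1 and 3.0 in mouse 2.

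Median promoter height over the 4 genes was 7.13, against 8.78 over the 11912 genes open in both mice. Of 30 other genes of receptor assembly and signalling, 26 had a promoter peak in both mice. The median height was 7.35 over these 26, and 7.18 over all 30 with a missing peak taken as 0. The highest were Nck1, an adaptor that binds the tail of CD3 epsilon, at 29.2 ± 21.3, the kinase Fyn at 23.1 ± 11.1, and the membrane scaffold Lat at 19.0 ± 9.2 (SD, n = 2 each). Trac and Fcer1g had no promoter peak in either mouse, and Trbc2 had a peak of 1.12 in mouse 2 and none in mouse 1. Trac and Trbc2 encode constant segments of the receptor, which are transcribed from promoters of upstream segments, and Fcer1g encodes a signalling chain related to zeta. Of the 30 genes, 8 were higher than Cd3g, 12 higher than Cd3e, 18 higher than Cd247 and 21 higher than Cd3d.

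**Figure D1:**
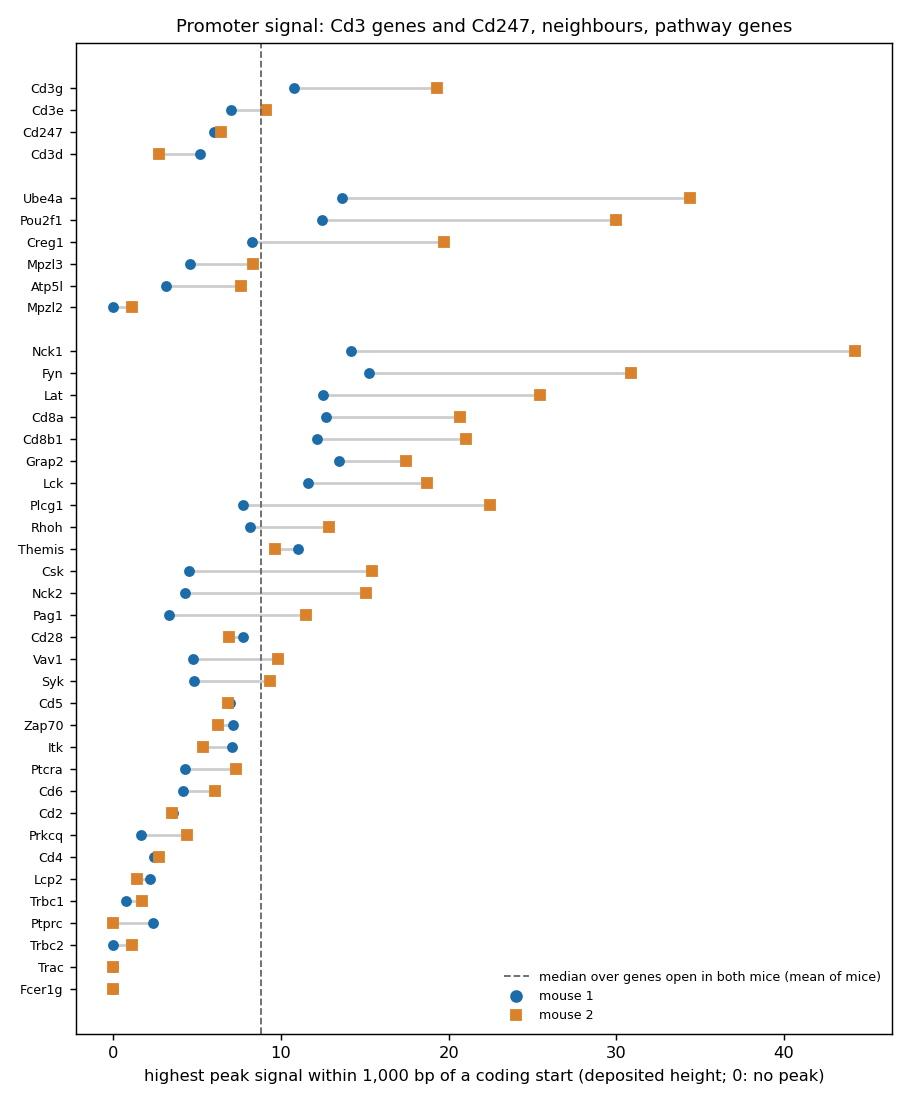
Promoter height by gene for the CD3 genes, their window neighbours and 30 receptor-signalling genes, with a circle for mouse 1, a square for mouse 2 and a dashed line at 8.78, the median over genes open in both mice. Cd3g lies right of the line in both mice, Cd247 and Cd3d lie left of it in both, and Cd3d is the CD3 gene whose circle lies right of its square on this scale of deposited heights.

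Outside the start-site peaks, the highest site of the Cd3 window that belongs to a CD3 gene was at the 3′ end of Cd3d. It spanned chr9:44986481-44986780, 4.84 kb past the start, and lay wholly in annotated untranslated exon sequence. Its height was 11.5 in mouse 1 and 11.0 in mouse 2, a mean of 11.2 ± 0.3 (SD, n = 2). Among the peaks of its own library it stood at the 96.5th percentile in mouse 1 and the 89.9th in mouse 2. Each mouse alone thus showed a higher peak at the 3′ end of Cd3d than at its start. Both mice had a footprint over the same 19 bases at 44986651 to 44986669, printed along Cd3d in capitals because all of them were covered.
Cd3d 3′ site footprint: ACAACTTCCGGGATTTTGC

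Next to it, 4.26 kb past the start, a site over coding exon sequence had 2.23 in mouse 1 and 2.02 in mouse 2. Between Cd3d and Cd3e, the site at Cd3e plus 12.8 kb had 2.67 in mouse 1 and 3.96 in mouse 2. A site nearer to the Cd3e gene, at 11.3 kb past its start, had 1.91 in mouse 1 and 2.56 in mouse 2. That site also lay within 1000 bp of a start of the annotated locus Gm48719. Upstream of Cd3e, the site at minus 6.46 kb had 4.30 in mouse 1 and 2.38 in mouse 2. By deposited height that site and the Cd3d start site were both higher in mouse 1.

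Several strong sites of the Cd3 window belong to neighbouring genes. The promoter of Ube4a, a ubiquitin-chain factor, reached 13.6 in mouse 1 and 34.4 in mouse 2, the highest site of the window in each mouse. Mpzl3, a membrane protein gene, had 4.57 in mouse 1 and 8.35 in mouse 2, and Atp5l, which encodes a subunit of ATP synthase, had 3.12 and 7.63. Mpzl2 had no promoter peak in mouse 1 and 1.13 in mouse 2. Between Cd3g and Ube4a, the site at Cd3g plus 13.4 kb had 2.94 in mouse 1 and 6.88 in mouse 2. In the sequence printed above, footprints of both mice covered an unbroken run of 48 bases there, at 44967000 to 44967047.

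**Figure D2:**
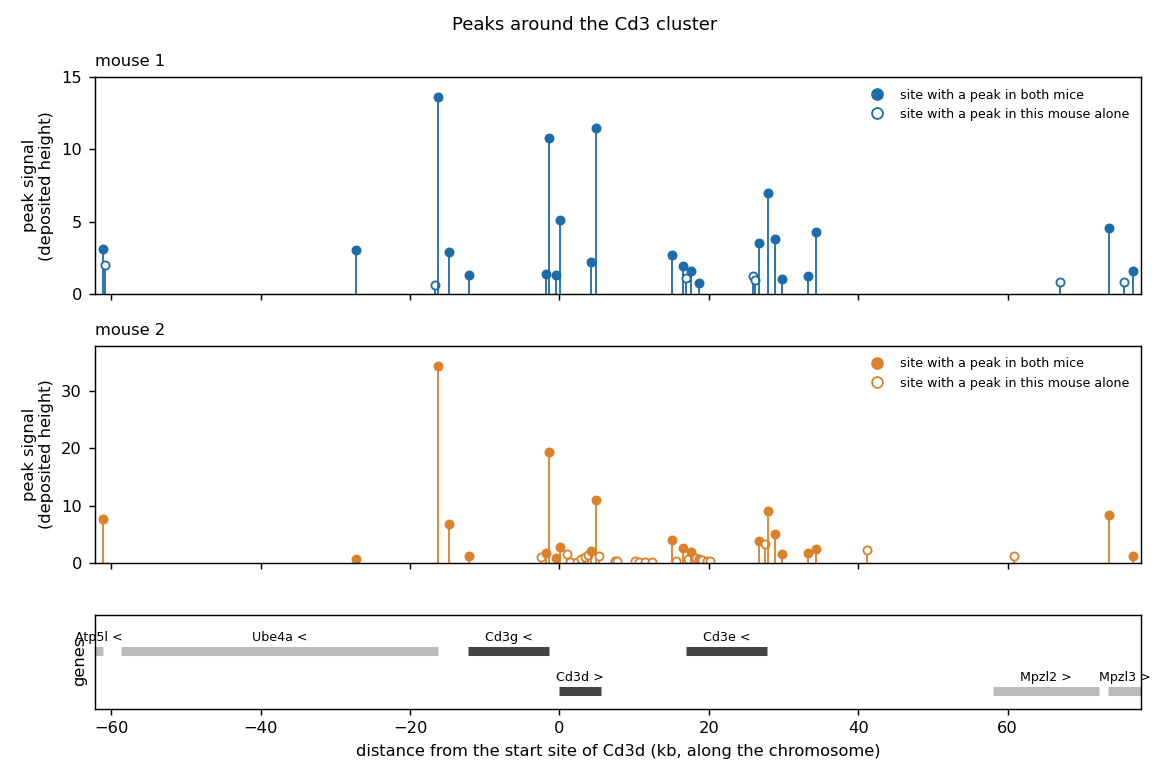
Peak height (deposited scale, with its own axis for each mouse) against distance in kb from the Cd3d start along chromosome 9, with filled circles for sites that have a peak in both mice and open circles for sites of that mouse alone, and gene bars below (arrowheads give the direction of reading). The tallest lines stand at the Ube4a and Cd3g starts and at the 3′ end of Cd3d in both mice, and the open circles of mouse 2 cluster over and between Cd3d and Cd3e at low height.

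In the Cd247 window the highest site was the promoter of Creg1, a gene for a secreted glycoprotein, with 8.30 in mouse 1 and 19.7 in mouse 2. The strongest sites of Cd247 itself were in its introns, in a pair near 14 kb and a group near 56 kb past the start. The site at plus 13.5 kb had 6.76 in mouse 1 and 7.55 in mouse 2. Its partner at plus 14.5 kb had 5.48 in mouse 1 and 9.35 in mouse 2. In mouse 2 both were higher than the Cd247 start site, and in mouse 1 the first of them was.

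The group near 56 kb held 4 sites. Their heights lay between 4.19 and 6.35 in mouse 1 and between 5.28 and 12.6 in mouse 2. The first along the chromosome, with 6.12 in mouse 1 and 5.28 in mouse 2, was the one higher in mouse 1. All 4 lay within 1000 bp of Gm32999 or Gm37856, loci that the annotation lists on the opposite strand as transcripts that await experimental proof. Farther on, the site at plus 65.2 kb had 2.49 in mouse 1 and 6.75 in mouse 2, and a run of 41 bases there, at 165853898 to 165853938, was covered by footprints of both mice. Past the 3′ end of Cd247 the 50 kb flank held 1 peak in mouse 1 and 0 in mouse 2. Pou2f1, which encodes the factor Oct-1 and overlaps the end of Cd247, had a height of 12.5 in mouse 1 and 30.01 in mouse 2 at its coding starts, of which the strongest peak lay outside the window.

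**Figure D3:**
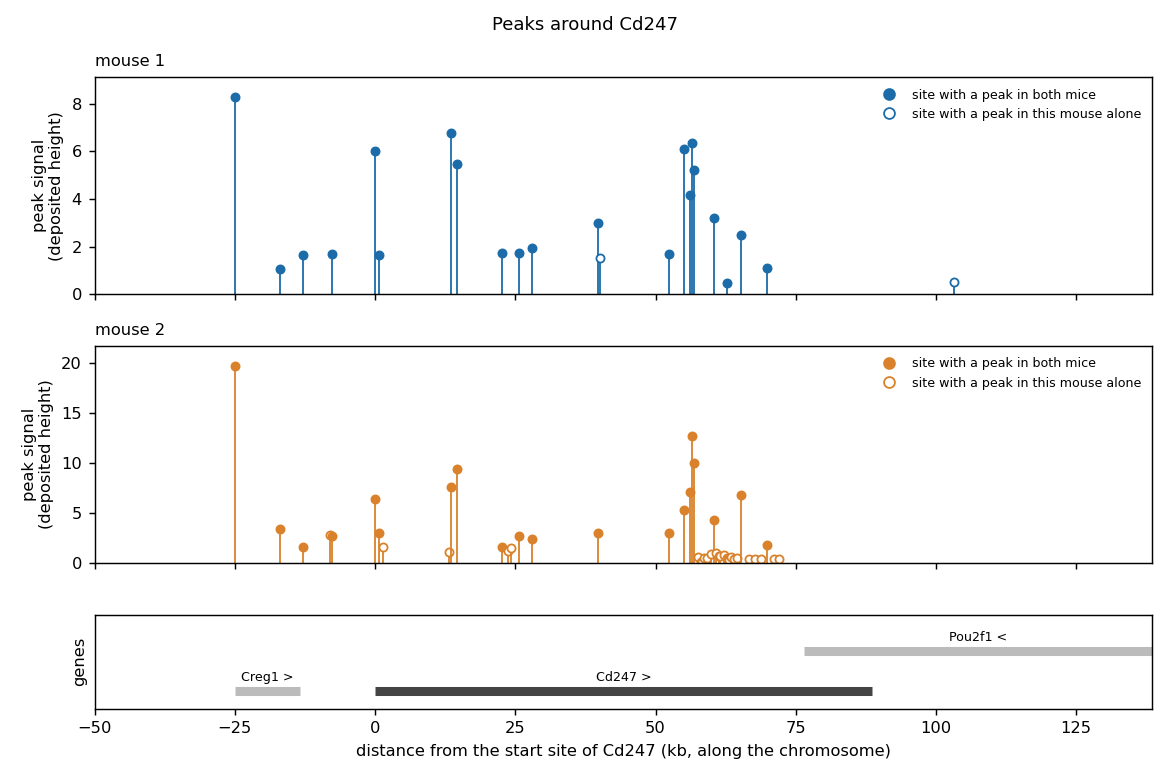
Peak height (deposited scale, with its own axis for each mouse) against distance in kb from the Cd247 start along chromosome 1, with filled circles for sites that have a peak in both mice and open circles for sites of that mouse alone, and gene bars below (arrowheads give the direction of reading). Filled circles stand at the start, near 14 kb and near 56 kb in both mice, and most open circles of mouse 2 lie beyond 56 kb, within the gene, at heights under 1.

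The windows were dense in peaks. The Cd3 window held 30 peaks in mouse 1 and 47 in mouse 2, a mean of 38.5 ± 12.0 (SD, n = 2), which is 2.75 peaks per 10 kb. The Cd247 window held 24 in mouse 1 and 45 in mouse 2, a mean of 34.5 ± 14.8 (SD, n = 2), or 1.83 per 10 kb. The median over all protein-coding genes with the same flanks was 0.454 per 10 kb, and the windows stood at the 98.3rd and 94.1st percentile. Taken singly, the overlapping windows of Cd3g, Cd3d and Cd3e stood at the 99.0th, 99.0th and 99.3rd percentile. Both windows held more peaks in mouse 2, whose list was also longer over the whole genome.

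Sharing between mice depended on which list was read. Of the 30 peaks of mouse 1 in the Cd3 window, 23 (76.7%) overlapped a peak of mouse 2, and in the Cd247 window 22 of 24 (91.7%), against 80.8% over all peaks of mouse 1. Of the 47 peaks of mouse 2 in the Cd3 window, 23 (48.9%) overlapped a peak of mouse 1, and in the Cd247 window 21 of 45 (46.7%), against 66.1% over all peaks of mouse 2. The shares read from mouse 2 were thus below that mouse's own genome-wide share in both windows.

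Unshared peaks of mouse 2 were mostly low. In the Cd3 window the 24 unshared peaks had a median height of 0.516, against 2.56 for the 23 shared ones. In the Cd247 window 24 unshared peaks had a median of 0.557, against 3.43 for the 21 shared ones. Within the span from Cd3g to Cd3e, 19 of 35 peaks of mouse 2 had a height under 1, and within Cd247 20 of 40. In mouse 1 these counts were 1 of 16 and 2 of 19. Over the whole genome 40.9% of the peaks of mouse 1 and 36.4% of those of mouse 2 were under 1. Of the 24 unshared peaks, 4 in the Cd3 window and 5 in the Cd247 window touched the longer, less strict peak list of mouse 1.

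Apart from the promoter peaks of Cd3e (3.27) and Cd3d (1.53) above, the strongest sites of 1 mouse alone were modest. In mouse 2 they were an intergenic site 13.4 kb before Cd3e with 2.31, exonic sites of Cd3d with 1.38 and 1.27, a site beside the non-coding gene Gm16565 before Cd247 with 2.77, and Cd247 intron sites with 1.59 and 1.48. In mouse 1 they were a site beside the Atp5l start with 2.03 and a Cd3e intron site with 1.28. A site at the 3′ end of Cd3e, also within 1000 bp of a start of Gm48719, had 1.15. In Cd247 an intron site had 1.5, and a site in Pou2f1 had 0.517. Of these, the site 13.4 kb before Cd3e and the Cd3d site with 1.27 touched neither the longer list nor a region of significant cutting in mouse 1.

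The share of bases with significant cutting (FDR below 0.05 in the deposited cut-rate lists) was also read over stretches of both windows. It comes from the same alignments as the peaks and is not separate evidence. Over Cd3d it was 36.0% in mouse 1 and 77.0% in mouse 2. Between the 3′ ends of Cd3d and Cd3e it was 9.88% in mouse 1 and 36.7% in mouse 2. Over the part of Cd247 beyond 60 kb it was 8.72% in mouse 1 and 35.1% in mouse 2. In these 3 stretches the share in mouse 1 was more than 2-fold lower. In the 1.354 kb between the Cd3g and Cd3d starts the mice were close, with 58.6% in mouse 1 and 54.7% in mouse 2. Over Cd3e the share was 33.4% in mouse 1 and 39.3% in mouse 2.

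Flanks behaved otherwise. On the Cd3g side of the cluster the share was 5.91% in mouse 1 and 6.22% in mouse 2, and on the Cd3e side it was 11.1% in mouse 1 and 6.75% in mouse 2. Before Cd247 it was 5.01% in mouse 1 and 6.50% in mouse 2. Significant cutting covered 1.28% of the genome in mouse 1 and 1.47% in mouse 2. The share over the gene body in mouse 1 minus that in mouse 2 was -41.1 percentage points for Cd3d, -11.2 for Cd247, -6.86 for Cd3g and -5.84 for Cd3e. Over all protein-coding genes the median of this difference was 0, and 0.625%, 3.79%, 5.75% and 6.60% of genes had a lower one than these 4, in that order. The median share itself was 1.89% in mouse 1 and 2.36% in mouse 2. By share the 4 genes ranged from the 80.2nd percentile (Cd3g, mouse 1) to the 99.1st (Cd3d, mouse 2). A larger share leaves room for a larger difference, and genes of like share were not compared. At a stricter FDR below 0.001, chosen after seeing the data, the difference was -48.02 percentage points for Cd3d. It was -17.2 between Cd3d and Cd3e, against -26.8 at the FDR of 0.05, and -15.0 for the end of Cd247, against -26.4, so in these stretches its size shrank by more than 1.5 times. Peak counts differed in the same stretches, with 3 in mouse 1 and 10 in mouse 2 over Cd3d and 5 and 18 over the end of Cd247. The library of mouse 2 had the longer peak list and the smaller step of height, and the part of depth in this difference was not tested.

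**Figure D4:**
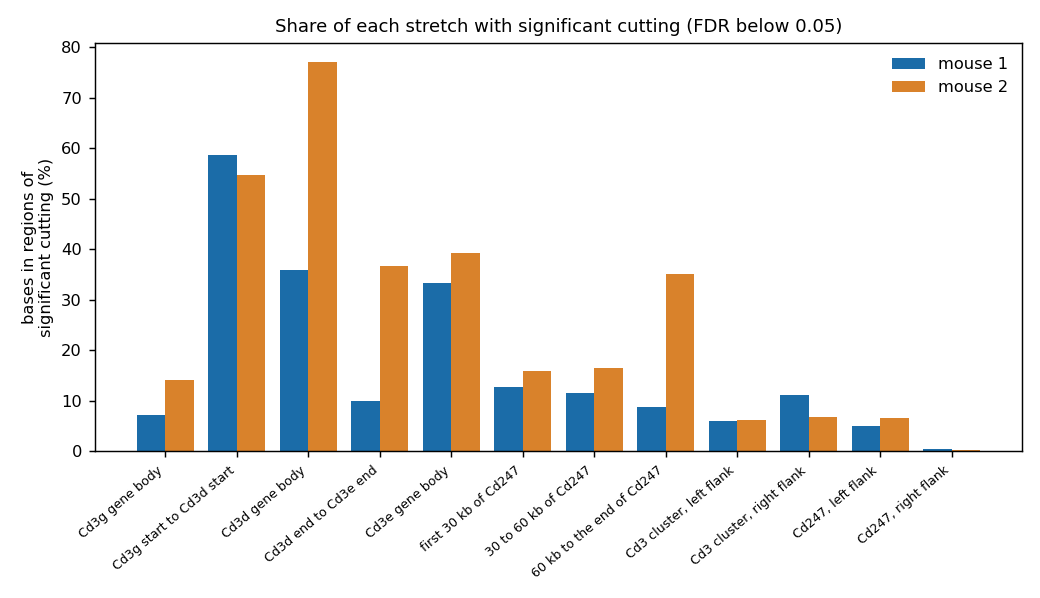
Percent of bases in regions of significant cutting (FDR below 0.05) for stretches of both windows, as bars for mouse 1 (left of each pair) and mouse 2 (right), 1 library each. The pairs differ most over Cd3d, between Cd3d and Cd3e, and over the last part of Cd247, while the interval between the Cd3g and Cd3d starts is close to equal.

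At the 44 sites with a peak in both mice, heights were compared as a log2 ratio of mouse 1 over mouse 2. The median was -0.32 over 23 sites of the Cd3 window, from -1.34 to 2.23, and -0.69 over 21 sites of the Cd247 window, from -1.70 to 0.21. Over all 46838 pairs of overlapping peaks in the genome it was -0.75 with an SD of 0.76, so heights in mouse 2 were generally the larger. At the start sites it was -0.84 for Cd3g, -0.38 for Cd3e, -0.10 for Cd247 and 0.91 for Cd3d. It was 0.06 at the 3′ site of Cd3d and -1.34 at the Ube4a promoter. The value of 2.23 belonged to 1 site, 25.8 kb past the Cd3g start in Ube4a, with 3.06 in mouse 1 and 0.650 in mouse 2. That site also lay within 1000 bp of a start of the annotated locus Gm19121.

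Sites richer in G and C had lower ratios. Spearman's rho between GC content and the log2 ratio was -0.50 over the 23 sites of the Cd3 window and -0.58 over the 21 of the Cd247 window. The sites come from the same 2 libraries and are not independent, so no p-value is given. The part of GC content or depth in the ratios was not tested.

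**Figure D5:**
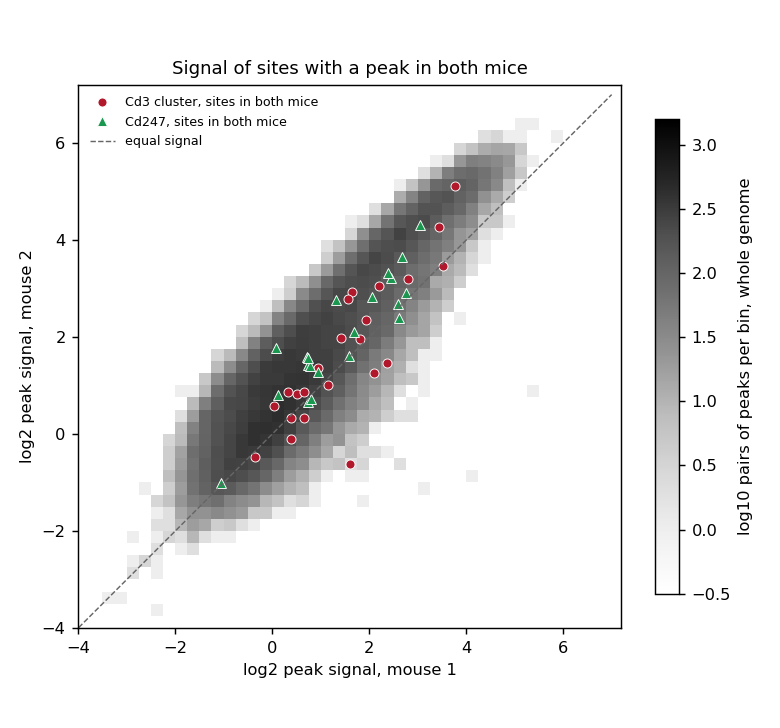
Log2 peak height in mouse 1 (horizontal) against mouse 2 (vertical) for sites with a peak in both mice, with red circles for the Cd3 window, green triangles for the Cd247 window, grey squares for the number of pairs of peaks over the whole genome and a dashed line at equal height. Most sites of both windows lie inside the grey cloud above the line, and the red circle far below it is the site in Ube4a with a log2 ratio of 2.23.

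Footprints were numerous in both windows. The Cd3 window held 156 in mouse 1 and 163 in mouse 2, and the Cd247 window 129 and 166. In mouse 1, 78 of the 156 footprints of the Cd3 window and 60.5% of those of the Cd247 window overlapped a footprint of mouse 2, against 55.6% over the genome. In mouse 2 the shares were 46.0% and 45.2%, against 45.2% over the genome. Not all footprints touched a peak of their mouse. In the Cd3 window 109 of 156 did in mouse 1 and 104 of 163 in mouse 2. In the Cd247 window 87 of 129 did in mouse 1 and 115 of 166 in mouse 2. The same share over the genome is not given here. A footprint lay in 27 of 30 peaks of mouse 1 and 34 of 47 of mouse 2 in the Cd3 window, and in 23 of 24 and 31 of 45 in the Cd247 window. Over all peaks it lay in 87.0% for mouse 1 and 89.7% for mouse 2, so the shares in mouse 2 were lower in both windows.

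At the Cd3g start the mice had nearly the same footprints. Counting the first transcribed base as 0 and bases before it as negative, they ran from -154 to -146, -83 to -69, -46 to -37 and 1 to 22 in mouse 1. In mouse 2 the matching ones ran from -160 to -145, -85 to -67, -46 to -39 and 2 to 23, and mouse 2 had 1 more at -178 to -169. The letters CACCTG, an E-box that E proteins bind, lay at -148 across the edge of the first of these in both mice. GGGCGG, the core that SP and KLF factors bind, lay at -44 in the third. There it overlapped AGAGGGC, a match to AGNGGGC, the pattern searched for CTCF with any base at N.

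At the other starts fewer footprints were shared. Cd3d had one over the start itself, from -16 to 2 in mouse 1 and -8 to 1 in mouse 2, and one from -90 to -84 and -88 to -72. Cd3e had one just inside the gene, from 11 to 25 in mouse 1 and 11 to 23 in mouse 2, one from -161 to -153 and -163 to -155, and one from -250 to -244 and -245 to -239. Cd247 had one from -43 to -23 in mouse 1 and -43 to -21 in mouse 2, and one from -114 to -97 and -105 to -95. Of the 12 motifs searched, none overlapped footprints of both mice in the printed bases before the Cd3e or Cd247 start. Before Cd3d, AGTGGGC, a match to the loose pattern AGNGGGC searched for CTCF, overlapped a footprint in both mice at -84, by 1 base in mouse 1.

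At the other printed sites, some E-box and RUNX letters overlapped footprints of both mice, and others did not. RUNX factors and E proteins are regulators of thymocyte genes. At Cd247 plus 13.5 kb, the E-boxes CAGCTG and also CACCTG overlapped footprints of both mice. So did TGGGGT, a match to the pattern TGNGGT searched for RUNX factors, which directly follows the CACCTG. At the same site another RUNX match, TGTGGT, and another CAGCTG overlapped no footprint in either mouse. An overlap of at least 1 base was counted, and how often such an overlap occurs over all peaks is not given here. At plus 14.5 kb footprints of both mice overlapped AGGAAG, the core that ETS factors bind, the E-box CACCTG and again TGGGGT. An E-box also overlapped footprints of both mice at 3 further sites. It read CAGCTG at Cd3e plus 12.8 kb and Cd247 plus 65.2 kb, but CACCTG at Cd3e minus 6.46 kb. The long footprint runs of 48 and 41 bases, at Cd3g plus 13.4 kb and Cd247 plus 65.2 kb, each held AGAGGGC, a match to the CTCF pattern AGNGGGC. It lay on the minus strand at the first and the plus strand at the second. The run at Cd3g plus 13.4 kb also held the NF-Y letters CCAAT.

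Over sites rather than footprints, matches on either strand were counted in the middle 200 bases. The comparison set, all peaks of mouse 1, was not matched to the shared sites. It also holds peaks that did not overlap a peak of mouse 2, and 40.9% of it had a height under 1. TGNGGT, the pattern searched for RUNX factors, takes any base at N. It was in 28 of the 44 shared sites (63.6%), against 42.5% of all 59484 peaks of mouse 1. CACCTG was in 36.4%, against 25.2%, and CAGCTG in 29.5%, against 17.7%. AGGAAG was in 29.5%, against 35.5%. CTTTGA, the core of TCF-1 and LEF-1, was in 18.2% against 13.6%, AGATAA for GATA3 in 9.09% against 5.87%, TGGGAA for the Ikaros family in 22.7% against 16.0%, TGACGT for CREB and ATF factors in 6.82% against 4.87%, and TGANTCA for AP-1 in 9.09% against 5.28%. GGGCGG was in 20.5% against 25.4%, CCAAT for NF-Y in 20.5% against 20.5%, and AGNGGGC in 27.3% against 25.3%. In the 250 bases before the start, TGNGGT was found at 4 of 4 CD3 genes and at 40.1% of 32851 RefSeq promoters. CACCTG was found at 3 of 4 and 17.2%, and AGGAAG at 3 of 4 and 29.5%. The E-box CAGCTG was at 0 of 4, against 13.0% of all promoters, the AP-1 letters TGANTCA at 0 of 4, against 6.75%, and the NF-Y letters CCAAT at 0 of 4, against 33.8%. The TCF-1 and LEF-1 core was at 1 of 4, against 13.8%, the GATA3 core at 1 of 4, against 9.99%, and the Ikaros core at 2 of 4, against 21.6%. The CREB and ATF core was at 1 of 4, against 6.47%, and the SP and KLF core at 1 of 4, against 32.7%. The CTCF pattern AGNGGGC was at 2 of 4, against 22.4%, as AGAGGGC before Cd3g and AGTGGGC before Cd3d. Such letters recur by base composition alone, and a match does not show that a factor was bound.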

How the data were processed

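DNase-seq was deposited per library, for thymus of 2 mice. Per the deposited text files, the authors derived peaks and cut rates from each library's filtered alignments to mm10, and footprints from both. No aligner, caller or cut-off is named (not given in the sources used here). The deposited signal (peak height) is on an unnamed scale. All heights were whole multiples of a step (within 0.1 steps), 0.00638 in mouse 1 and 0.00504 in mouse 2, which would mean 157 and 198 M reads (M, 1000000) if the scale were reads per M. The deposited cut-rate lists hold 1 p-value type, an FDR, with runs below 0.05 only. The footprint value (other) that the authors deposited is constant, so positions alone were used.

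The shorter peak list of each library (59484 and 72913 peaks) was used, the longer (93107 and 117361) as an alternative. Touching cut-rate runs were merged. An overlap of 1 bp or more counted as sharing, and the overlap code was tested on simulated data against bedtools 2.31.1. Python 3.11.15, numpy 2.4.6 and pysam 0.24.0 were used with GENCODE M21. Promoter heights are the highest peak within 1000 bp of a coding start of the basic annotation. Distances count from RefSeq starts. Named in full were promoter peaks of the 4 genes, the 8 strongest other sites per window found in both mice, the 3 strongest of each mouse alone, window neighbours, and the 3 highest and 3 lowest of 30 signalling genes. Further sites, chosen after their values were seen, are named where a count turns on them. Members, gene lists and motifs were chosen with earlier results of these data known, and the CTCF pattern was added after the sequences were seen. Intervals between mice cover 2 animals of 1 group, so no test between groups was run. A further marker gene and a further sequence are not reported here.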

Additional observations from a re-analysis of the deposited data

How the results depend on the processing

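Of 45 alternative values, 38 stayed within 1.5 times of the reported count or difference, or, for shares, within the spread between mice. At an FDR below 0.001, chosen after seeing the data, the difference in cut share between the mice (mouse 1 minus mouse 2) was -17.2 percentage points between Cd3d and Cd3e, against -26.8, and -15.0 over the end of Cd247, against -26.4. All 4 promoters stayed open in the longer list. They also stayed open at 500 and 2500 bp and in each mouse alone, by construction, because all 4 start sites lay inside a peak in both mice. Those peaks were above the median height of their library, so the same was fixed among the stronger 50% of peaks. These values are counted among the 38. The mean peak count moved to 22.0 in the Cd3 window and to 21 in the Cd247 window among the stronger 50% of peaks, and to 53.0 in the Cd247 window with 100 kb on each side, each by construction. Counted over the peaks of mouse 2, sharing was 48.9% in the Cd3 window and 46.7% in the Cd247 window. Leaving out 1 mouse gave 30 to 47 peaks and 156 to 163 footprints in the Cd3 window, and 24 to 45 peaks and 129 to 166 footprints in the Cd247 window, so the peak counts of both windows differed by more than 1.5 times between the mice. Keeping peaks of at least 50 bp and a height of at least 1, an alternative chosen after seeing the data, gave 26.5 and 23.0. No paired analysis was possible because the mice form 1 group. Read numbers are not given directly, and the part of depth in the weak peaks was not tested.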
